A study of Mus musculus with 8 samples.

Results

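The 10 genes described here encode heat shock proteins and their co-chaperones: Hspa1a, Hspa1b, Hsph1, Dnajb1, Hsp90aa1, Hsp90ab1, Hspa8, Hspd1, Hspe1 and Bag3. They are 10 of 23413 gene symbols in RNA-seq counts of tumor-associated macrophages (TAMs), and all 10 passed the filter on low counts. They were chosen by name as HSF1-responsive chaperones, with their differences between the I.P., S.C. and DMSO mice already known, so these differences are given as a description without a test. TAMs were sorted as CD45+F4/80+CD11b+Gr-1- cells from subcutaneous B16F10 tumors, a mouse melanoma line, of male C57BL/6 mice aged 8 to 10 weeks at engraftment.

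No engineered allele is named for the mice, which formed 3 groups with 1 library per mouse. The 2 DMSO mice received vehicle, 4 mice received the antibiotic thiostrepton by intraperitoneal (I.P.) injection, and 2 mice received it by subcutaneous (S.C.) injection beside the tumor, which the labels call IS. Doses were scheduled at days 6 and 12 and TAMs were taken at day 18, that is 6 days after the last dose. The S.C. dose was 20 mg/kg and the I.P. dose was higher, so route and dose cannot be told apart. Which I.P. dose these 4 mice had, and by which route the DMSO mice were injected, is not given in the sources used here.

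Chaperones bind unfolded proteins and help them to fold. HSP70 proteins (Hspa1a, Hspa1b and Hspa8) do so in cycles of ATP use that J-domain proteins such as Dnajb1 start and that exchange factors such as Bag3 and Hsph1 reset. HSP90 proteins (Hsp90aa1 and Hsp90ab1) mature client proteins such as kinases and steroid receptors, and Hspd1 with its lid Hspe1 folds proteins inside mitochondria. The transcription factor HSF1 is held inactive in unstressed cells, and upon heat or proteotoxic stress it binds heat shock elements, inverted repeats of GAA, near these genes. Macrophages use the same system when inflammatory activation or phagocytosis loads them with damaged proteins.

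Promoter sequences are shown because they are where the genes most alike in these data, Hspa1a and Hspa1b, are nearly the same, and because they hold the GAA repeats. RefSeq promoter windows (GRCm38.p6, 250 bases before to 50 after the start) were matched for 7 of 10 genes. No window was matched for Hsp90aa1, Hsp90ab1 and Hspa8. The windows were searched on both strands for 3 inverted units, GAANNTTCNNGAA or TTCNNGAANNTTC, and for 2 units, GAANNTTC or TTCNNGAA. The 2-unit motifs lie within the 3-unit motifs. For Hspa1a (chr17:34972157-34972306, minus strand) and Hspa1b (chr17:34959239-34959388, minus strand) the 150 bases before the start are printed 5' to 3', with a 2-unit match in capitals.
Hspa1a: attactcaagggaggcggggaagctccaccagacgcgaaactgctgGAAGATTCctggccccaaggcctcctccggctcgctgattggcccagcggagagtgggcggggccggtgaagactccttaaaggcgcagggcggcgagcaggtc
Hspa1b: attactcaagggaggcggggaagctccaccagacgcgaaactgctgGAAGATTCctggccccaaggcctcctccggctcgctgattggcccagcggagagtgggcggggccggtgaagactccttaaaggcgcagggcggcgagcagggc
These stretches differed at 1 of 150 bases, and the whole 250 bases before the start at 3. Each held the 2-unit match from 104 bases before the start, and neither window held 3 units in a row.

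For Hspe1 (chr1:55088053-55088082, plus strand) and Hsph1 (chr5:149636287-149636316, minus strand), 30 bases around the 3-unit matches are printed, with the matched units in capitals. The Hspe1 stretch lies before its start and within an annotated untranslated region of Hspd1, and the Hsph1 stretch lies after its start in its own.
Hspe1: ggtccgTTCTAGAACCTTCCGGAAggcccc
Hsph1: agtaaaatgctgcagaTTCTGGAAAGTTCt
The capitals of Hspe1 join 2 overlapping 3-unit matches, and the same DNA is read on the other strand in 1 of 2 Hspd1 windows, which belongs to a start downstream of the outermost one. The Hspd1 window at the outermost start, 111 bases from the Hspe1 start, held neither 3 nor 2 units. Counting a gene if any of its windows matched, 3 of the 7 matched genes (Hsph1, Hspd1 and Hspe1) held 3 units and 6 held 2 units, Dnajb1 being the exception. Over 27025 gene symbols with windows, 0.662% held 3 units and 17.0% held 2. A match describes letters in a window and is not evidence that HSF1 bound there. Only exact units inside these windows were counted, so a missing match is not evidence that a gene lacks a heat shock element.

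Libraries held 14127506 to 17577466 counts, and TMM scaling factors ran from 0.9308 to 1.0736. All 8 macrophage markers were detected in every mouse, with sums of 19828.6 to 21577.9 CPM (counts scaled to a common library size) in DMSO, 18380.0 to 23482.2 CPM in I.P. and 26018.6 to 31229.9 CPM in S.C. mice. Most of each sum was Lyz2, with means of 15925, 15054 and 23221 CPM in DMSO, I.P. and S.C. mice. Cd68 was also above the DMSO mice (2377 to 2695 CPM) in both S.C. mice (2879 to 3319 CPM) and every I.P. mouse (2861 to 3398 CPM). Fcgr1 was lower in S.C. than in DMSO mice (154 to 172 against 173 to 188 CPM), and Ptprc and Mertk overlapped between them. For Csf1r the S.C. mice lay on both sides of the DMSO mice (353 and 1128 against 733 to 767 CPM). The same held for Emr1 (361 and 1020 against 594 to 915 CPM) and Itgam (103 and 384 against 198 to 254 CPM). The 6 melanoma markers were also detected in every mouse. They summed to 595 and 665 CPM in DMSO, 459 to 1664.5 CPM in I.P., and 2958 and 697 CPM in S.C. mice. Neutrophil markers summed to at most 36.9 CPM except in S.C. mouse 2 (261 CPM), T and NK cell markers to at most 38.4 CPM, B cell markers to at most 29.8 CPM, endothelial markers to at most 10.5 CPM and fibroblast markers to at most 1.23 CPM. In such bulk samples, fewer cells of a type and less RNA per cell cannot be told apart.

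The 10 genes took 0.48% and 0.409% of all counts in DMSO mice, 0.288% to 0.371% in I.P. mice, and 0.475% and 0.527% in S.C. mice. Per kilobase of merged exons, Hspa8, the constitutive cytosolic HSP70, was the most abundant in DMSO mice with a mean level of 799 CPM per kb. Hsp90ab1, the constitutive cytosolic HSP90, followed with 268 CPM per kb. A middle tier held Hspa1b with 125 CPM per kb, Hspd1 with 119, Hspe1 with 114, Hspa1a with 101 and Hsp90aa1, the inducible HSP90, with 76.8. Within this tier, neighbours in the order overlapped between the DMSO mice. Shared sequence limits these ranks: 67.3% of the 50-base words of Hspa8 transcripts, 50.1% of those of Hsp90aa1 (44.1% with Gm12346), 39.7% of those of Hspd1 and 36.1% of those of Hspe1 also occur in transcripts of other genes. Levels of Dnajb1 (14.1 CPM per kb), Bag3 (9.90) and Hsph1 (9.53) were lowest. In I.P. mice, Hspa1a and Hspa1b stood at 42.4 and 33.4 CPM per kb, below Hspd1, Hspe1 and Hsp90aa1, whereas in S.C. mice they stood at 168 and 220 CPM per kb, above those 3 genes.

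**Figure D1:**
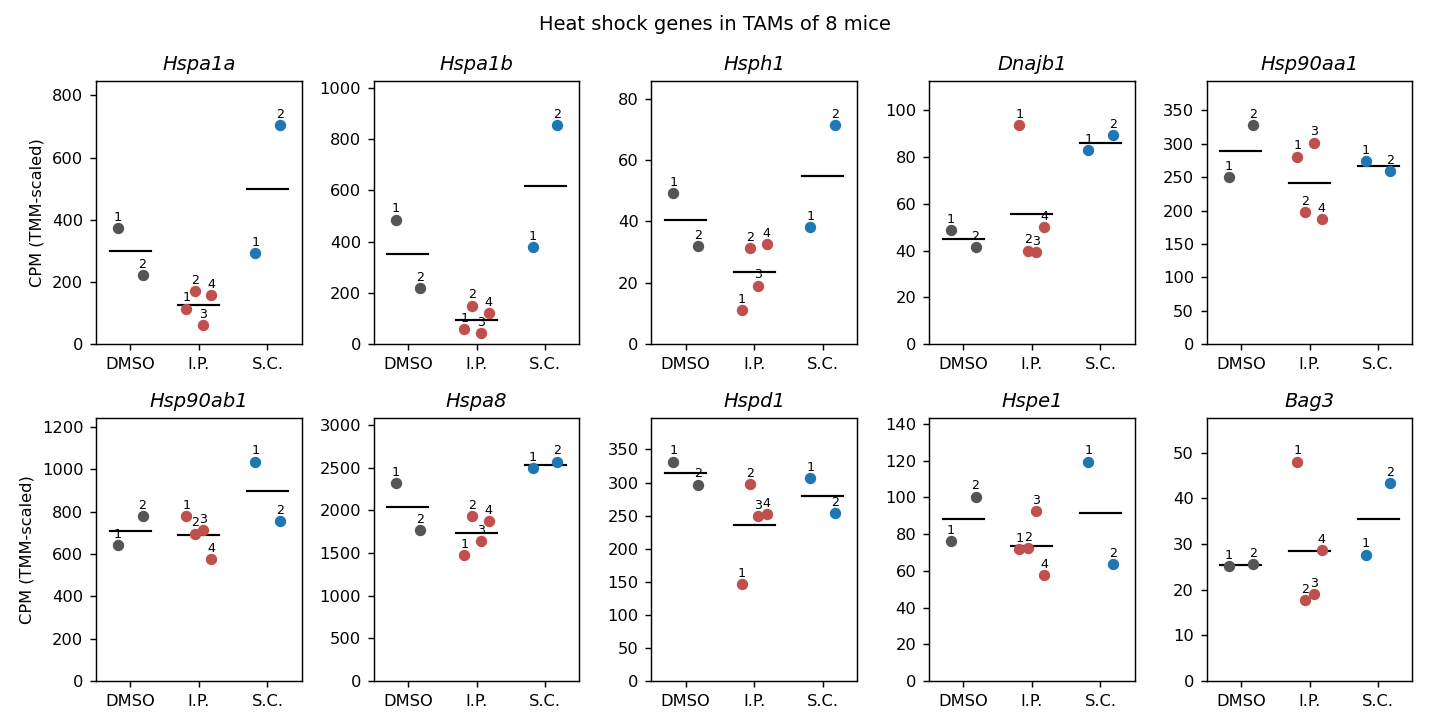
TMM-scaled CPM of the 10 genes (y axes from 0, each gene on its own scale) in DMSO, I.P. and S.C. mice, with a point and number per mouse and a line at each group mean. Hspa1a and Hspa1b in all 4 I.P. mice lie below both DMSO mice, while Dnajb1 is near 90 CPM in I.P. mouse 1 as in the S.C. mice.

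Hspa1a and Hspa1b, the inducible cytosolic HSP70 genes, were lowest in the I.P. mice. Hspa1a was at 374 and 223 CPM in DMSO, at 114, 171, 61.0 and 157 CPM in I.P., and at 293 and 705 CPM in S.C. mice. Every I.P. mouse was below every other mouse, S.C. mouse 1 lay between the DMSO mice, and S.C. mouse 2 was the highest. Group means were 298 ± 107 CPM in DMSO (SD, n = 2), 126 ± 49.5 CPM in I.P. (SD, n = 4) and 499 ± 291 CPM in S.C. mice (SD, n = 2).

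Hspa1b followed the same order of mice throughout. It was at 486 and 218 CPM in DMSO, at 58.0, 150.1, 44.4 and 121 CPM in I.P., and at 378 and 855 CPM in S.C. mice. The I.P. mice again lay below all others without overlap, whereas the S.C. and DMSO mice overlapped. Means were 352 ± 189, 93.5 ± 50.5 and 616 ± 338 CPM (SD) in DMSO, I.P. and S.C. mice.

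Fitted log2 fold changes in I.P. over DMSO were -1.25 ± 0.40 (SE) for Hspa1a and -1.91 ± 0.50 for Hspa1b. Leaving out 1 mouse at a time gave -1.57 to -0.83 for Hspa1a and -2.38 to -1.22 for Hspa1b, with the smallest difference reached without DMSO mouse 1. In S.C. over DMSO they were 0.72 ± 0.52 and 0.79 ± 0.56, differences that rested on S.C. mouse 2: without it they were -0.08 and 0.05. In S.C. over I.P. they were 1.99 ± 0.45 and 2.72 ± 0.52, and 1.22 and 2.01 without S.C. mouse 2. The comparisons share mice, so their values are not independent.

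The paired genes lie 12918 bases apart on chromosome 17, and 60.3% of the 50-base words of Hspa1a transcripts also occur in transcripts of other genes, nearly all of them Hspa1b (58.8%). How reads were divided between the copies is therefore uncertain. Summed over both genes, levels were 859.6 and 440.1 CPM in DMSO, 172, 321, 105 and 279 CPM in I.P., and 671 and 1560.2 CPM in S.C. mice. The sum differed by -1.57 ± 0.44 (log2, SE) in I.P. over DMSO, 0.76 ± 0.54 in S.C. over DMSO and 2.35 ± 0.47 in S.C. over I.P., so the direction did not depend on the division. Hspa1a was 43.5% and 50.6% of the counts of the pair in DMSO mice, 53.2% to 66.3% in I.P. and 43.7% and 45.2% in S.C. mice.

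**Figure D2:**
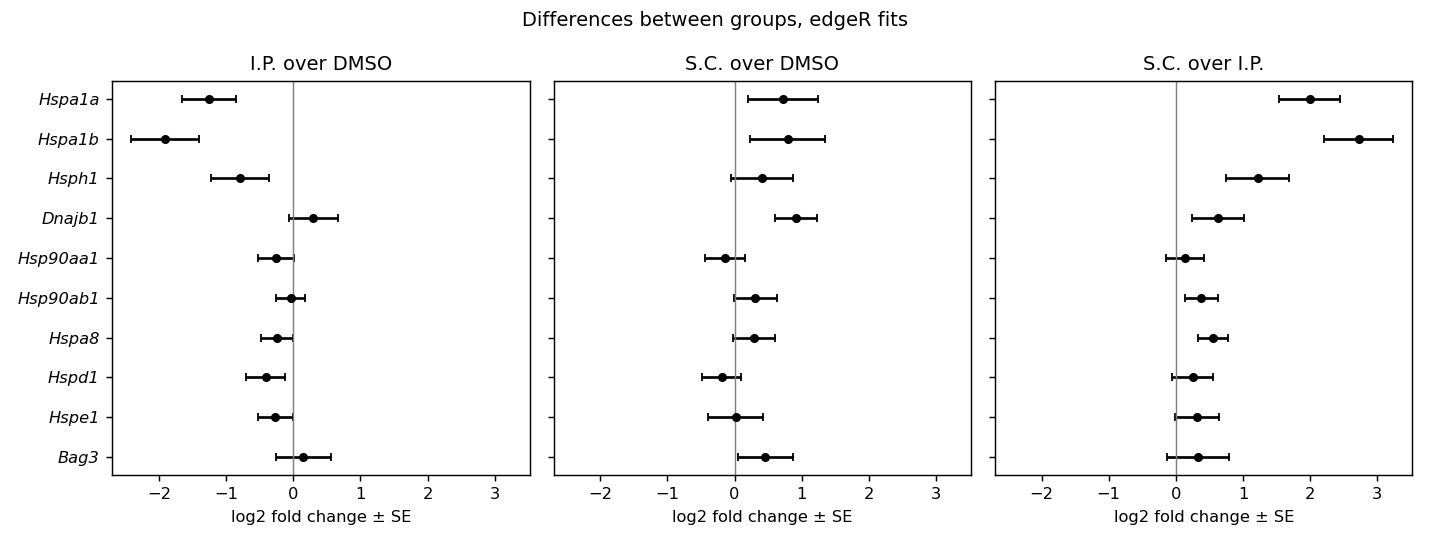
Log2 fold changes of the 10 genes (points) with standard errors (bars) from edgeR fits of each pair of groups, as a description without a test. Hspa1a and Hspa1b were lowest in I.P. over DMSO (-1.25 and -1.91), and all 10 values lie above 0 in S.C. over I.P. Of these, Hspe1 (0.31 ± 0.33) was -0.22 without S.C. mouse 1, and Bag3 (0.33 ± 0.46) was -0.04 without S.C. mouse 2.

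Hspa8 was far more abundant and varied less. It was at 2319 and 1764 CPM in DMSO, at 1479, 1928, 1642 and 1877 CPM in I.P., and at 2492 and 2571 CPM in S.C. mice. Both S.C. mice were above all 6 other mice, and I.P. and DMSO mice overlapped. The log2 fold change was -0.24 ± 0.24 (SE) in I.P. over DMSO, 0.29 ± 0.31 in S.C. over DMSO and 0.55 ± 0.22 in S.C. over I.P. Most of the words that Hspa8 shares lie in Gm15459 (64.4%), so its level may include or lack shared reads.

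Hsph1 (HSP110), which resets the HSP70 cycle and holds unfolded proteins, moved in the direction of the inducible HSP70 genes with more overlap. It was at 49.2 and 32.0 CPM in DMSO, at 11.1, 31.3, 19.1 and 32.7 CPM in I.P., and at 38.2 and 71.5 CPM in S.C. mice. Only I.P. mouse 4 exceeded DMSO mouse 2, and both S.C. mice were above every I.P. mouse. Log2 fold changes were -0.79 ± 0.43 (SE) in I.P. over DMSO, 0.41 ± 0.46 in S.C. over DMSO and 1.22 ± 0.47 in S.C. over I.P. The value in S.C. over DMSO was -0.15 without S.C. mouse 2.

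Dnajb1, the J-domain protein that pairs with inducible HSP70, did not fall in the I.P. mice and showed another order of mice. It was at 48.8 and 41.5 CPM in DMSO, at 93.6, 40.0, 39.5 and 50.1 CPM in I.P., and at 83.0 and 89.2 CPM in S.C. mice. I.P. mouse 1 was the highest of all mice, next to the S.C. mice, and the other I.P. mice were near the DMSO mice. In S.C. over DMSO the log2 fold change was 0.91 ± 0.31 (SE), 0.79 to 1.02 with 1 mouse left out. In I.P. over DMSO it was 0.30 ± 0.37, and -0.06 without I.P. mouse 1.

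Bag3, an exchange factor that links HSP70 to autophagy, resembled Dnajb1. It was at 25.2 and 25.6 CPM in DMSO, at 48.1, 17.8, 19.0 and 28.7 CPM in I.P., and at 27.7 and 43.4 CPM in S.C. mice. I.P. mouse 1 was again the highest, and the spread of the I.P. mice contained both DMSO mice. The log2 fold change was 0.15 ± 0.41 (SE) in I.P. over DMSO, and -0.22 without I.P. mouse 1. In S.C. over DMSO it was 0.46 ± 0.41, and 0.06 without S.C. mouse 2.

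The HSP90 genes varied little between groups. Hsp90aa1 was at 250.1 and 328 CPM in DMSO, at 281, 198, 302 and 187 CPM in I.P., and at 275 and 259 CPM in S.C. mice, and all 3 groups overlapped. Hsp90ab1 was at 640.4 and 778 CPM in DMSO, at 779, 697, 711 and 576 CPM in I.P., and at 1037 and 756 CPM in S.C. mice. S.C. mouse 1 alone stood above the other 7 mice for Hsp90ab1. Log2 fold changes in I.P. and S.C. over DMSO were -0.26 ± 0.27 (SE) and -0.14 ± 0.30 for Hsp90aa1. For Hsp90ab1 they were -0.04 ± 0.22 and 0.31 ± 0.32.

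The mitochondrial pair Hspd1 (HSP60) and Hspe1 (HSP10) also overlapped between groups. Hspd1 was at 332 and 297 CPM in DMSO, at 146, 298, 249 and 252 CPM in I.P., and at 307 and 254 CPM in S.C. mice. I.P. mouse 1 was the lowest of the 8 mice. Hspe1 was at 76.2 and 100.5 CPM in DMSO, at 72.0, 72.3, 92.5 and 57.8 CPM in I.P., and at 119.5 and 63.4 CPM in S.C. mice. The S.C. mice held both the highest Hspe1 value and the second lowest, so the group mean describes neither. Log2 fold changes in I.P. and S.C. over DMSO were -0.41 ± 0.29 (SE) and -0.19 ± 0.29 for Hspd1. For Hspe1 they were -0.27 ± 0.26 and 0.02 ± 0.41.

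Over the 10 genes, the median log2 fold change was -0.27 in I.P. over DMSO, 0.36 in S.C. over DMSO and 0.46 in S.C. over I.P., beside medians of 0.018, 0.018 and 0.023 over all genes tested. The medians of all 3 comparisons kept their sign with any mouse left out, but that of S.C. over DMSO shrank to 0.05 without S.C. mouse 2. In I.P. over DMSO, 2 of 10 genes (Hspa1a and Hspa1b) lay below both DMSO mice in every I.P. mouse and 0 lay above, where 6.83% and 7.32% of all genes did so. Against DMSO, S.C. mice had 3 of 10 (Dnajb1, Hspa8 and Bag3) above and 0 below, where 17.1% and 17.2% of all genes did so. In S.C. over I.P., 4 of 10 (Hspa1a, Hspa1b, Hsph1 and Hspa8) lay above and 0 below, beside 8.05% and 10.5% of all genes. As the genes were selected on these contrasts, these counts describe them only, and genes are not replicates of a condition.

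The 10 genes did not vary as 1 unit over the 8 mice. Log2 CPM of Hspa1a and Hspa1b had a Pearson r of 0.98 and a Spearman rho of 1, and r was 0.94 after group means were subtracted. Hspa1b and Hsph1 had an r of 0.92 (rho 0.90), and Hspa1b and Hspa8 also 0.92 (rho 0.88), with 0.84 and 0.82 within groups. Dnajb1 and Bag3 had an r of 0.87 (rho 0.93) and 0.92 within groups, but 0.64 without I.P. mouse 1 and S.C. mouse 2, the mice farthest from the median of Dnajb1. Hspd1 and Hspe1, head-to-head genes whose products form 1 complex, had an r of 0.33 (rho 0.45) and 0.14 within groups, but 0.62 without I.P. mouse 1 and DMSO mouse 1, the farthest from the median of Hspd1. On that measure this pair and Dnajb1 with Bag3 are about alike, whereas the first 3 pairs had 0.99, 0.89 and 0.90 without S.C. mouse 2 and I.P. mouse 3. These correlations are descriptions over 8 mice that share group and library depth, and Hspa1a and Hspa1b also share sequence.

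Immediate early genes, transcription factors and regulators induced within minutes of a stimulus and also by tissue handling, were examined beside the heat shock genes. Summed over 12 genes such as Fos, Junb and Nr4a1, they stood at 3064 and 1882 CPM in DMSO, at 9849.7, 2209, 2086 and 3276 CPM in I.P., and at 8185 and 9976 CPM in S.C. mice. I.P. mouse 1 and both S.C. mice thus stood apart from the other 5, and they also carry the 3 lowest numbers in the sample titles, whose meaning is not stated. Between S.C. and DMSO mice, 11 of 12 immediate early genes rose at an unadjusted P under 0.05 by edgeR's quasi-likelihood test, where 2.5% of all genes did, with a median log2 fold change of 2.39. In I.P. over DMSO all 12 had values above 0 (median 1.01) and 0 passed, beside 2.55% of all genes.

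The same 3 mice held the highest values of Dnajb1, and the 2 highest values of Bag3 were among them. Hspa1a and Hspa1b did not follow that order. In I.P. mouse 1 their sum was 172 CPM, below the 440.1 and 859.6 CPM of the DMSO mice. The immediate early sum of that mouse was over that of either DMSO mouse. Without I.P. mouse 1, I.P. over DMSO was -1.20 for Hspa1a and -1.73 for Hspa1b on the log2 scale. S.C. injection and this set of mice cannot be told apart in S.C. over DMSO. The part of immediate early expression in the I.P. and S.C. values was not tested. Melanoma markers were highest in S.C. mouse 1 (2958 CPM), in which Hspa1a and Hspa1b lay within the DMSO range. S.C. mouse 2, on which the S.C. over DMSO values of Hspa1a and Hspa1b rest, had the most neutrophil markers, 261 CPM over 8 genes with 0 of them undetected, against 4.03 to 36.9 CPM in the other mice, although the sort took Gr-1- cells. The part of either marker list was not tested.

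**Figure D3:**
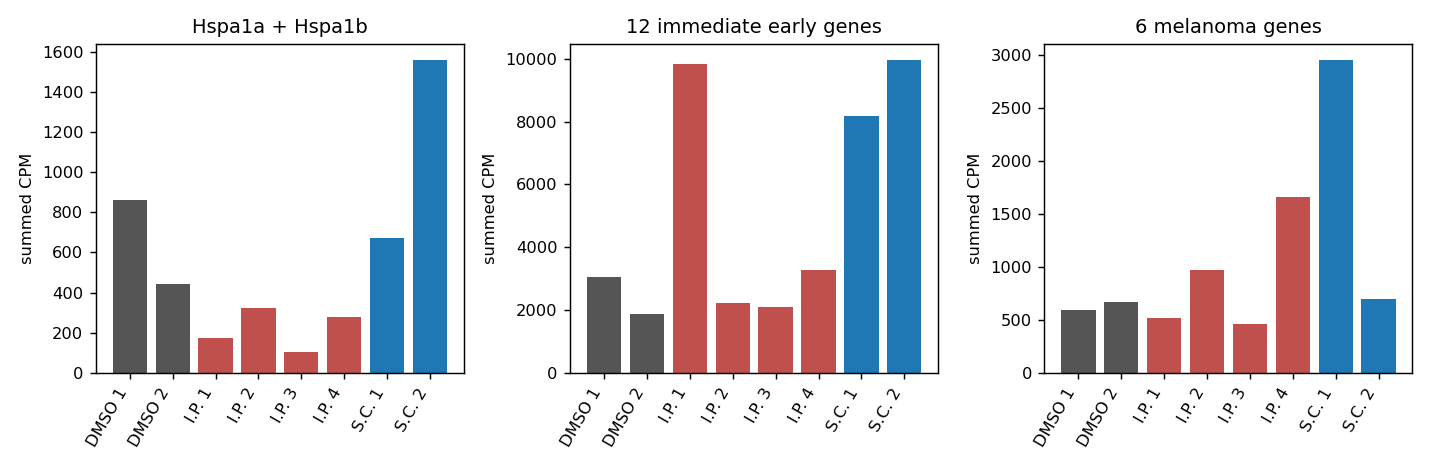
Summed CPM (y axes from 0) of Hspa1a and Hspa1b, of 12 immediate early genes and of 6 melanoma markers, with 1 bar per mouse (DMSO grey, I.P. red, S.C. blue). I.P. mouse 1 has an immediate early sum of 9849.7 CPM beside the S.C. mice, and an Hspa1a and Hspa1b sum of 172 CPM among the I.P. mice.

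The wider chaperone system was described by 9 lists of 116 other genes, of which 106, 106 and 107 were tested in I.P. over DMSO, S.C. over DMSO and S.C. over I.P. By edgeR's quasi-likelihood test, 2 rose and 0 fell at an unadjusted P under 0.05 in I.P. over DMSO, where 2.55% and 0.879% of all genes did. For S.C. over DMSO 1 rose and 1 fell, beside 2.5% and 2.91% of all genes. In S.C. over I.P. 4 rose and 3 fell, beside 3.25% and 5.34% of all genes. These shares are near those of all genes. No gene of the whole table passed an adjusted p of 0.05 in any comparison by this test, while DESeq2 called 19, 107 and 234 genes and edgeR's likelihood ratio test 10, 179 and 265. At unadjusted P under 0.05 the quasi-likelihood test passed 418, 632 and 1049 genes.

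Among the HSF regulators, Hsf1 itself was at 29.5 and 21.7 CPM in DMSO, at 22.0, 23.7, 15.8 and 24.5 CPM in I.P., and at 40.2 and 11.9 CPM in S.C. mice. The groups overlapped, with log2 fold changes of -0.26 ± 0.28 (SE) in I.P. and 0.00 ± 0.64 in S.C. over DMSO. Hsbp1, a small protein that binds HSF1, had -0.12 ± 0.22 and -0.14 ± 0.35. Hsf2, at a mean of 1.41 CPM, had -0.58 ± 0.63 and -1.74 ± 1.31, and Hsf4 and Hsf5 were too low to be tested. HSF1 activity is set largely by trimerization and phosphorylation of the protein, which counts of its mRNA do not show.

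Of 14 other HSF1-inducible genes, 1 rose in each route over DMSO, beside 2.55% (I.P.) and 2.5% (S.C.) of all genes. Zfand2a, an arsenite-inducible zinc finger protein that binds the proteasome, was at 49.1 and 56.6 CPM in DMSO, at 169, 69.7, 69.1 and 118 CPM in I.P., and at 62.8 and 110.5 CPM in S.C. mice. All treated mice were above both DMSO mice, with a log2 fold change of 1.0 ± 0.39 (SE; adjusted p = 0.98, edgeR) in I.P. and 0.69 ± 0.39 in S.C. over DMSO, the first passing unadjusted only. It no longer passed without either DMSO mouse or without I.P. mouse 4. It was thus on the other side of the DMSO mice from Hspa1a in the I.P. group. Hspa4l, an HSP110 relative, was at 22.7 and 16.8 CPM in DMSO, at 36.2, 17.3, 14.6 and 27.3 CPM in I.P., and at 33.4 and 72.5 CPM in S.C. mice. Its value in S.C. over DMSO was 1.40 ± 0.50 (adjusted p = 0.846, edgeR), and without S.C. mouse 2, or without either DMSO mouse, it no longer passed unadjusted.

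In S.C. over I.P., 3 of the 14 rose, Hspa4l, Dnaja1 and Serpinh1, beside 3.25% of all genes. For Hspa4l and Serpinh1 the S.C. and I.P. mice overlapped. The Hspa4l call was lost without S.C. mouse 2 and without I.P. mouse 2, 3 or 4. Dnaja1, a J-domain partner of cytosolic HSP70, was at 206 and 226 CPM in DMSO, at 172, 211, 169 and 140.2 CPM in I.P., and at 349 and 352 CPM in S.C. mice. Both S.C. mice were above all other mice, with 1.02 ± 0.24 (SE; adjusted p = 0.282, edgeR) in S.C. over I.P. Serpinh1, the collagen chaperone HSP47, stood at 119 CPM in S.C. mouse 1 and at 2.03 to 16.3 CPM in the other mice, and S.C. mouse 1 was also the mouse with the most melanoma markers. The list's median log2 fold change was -0.08 in I.P. over DMSO, 0.39 in S.C. over DMSO and 0.45 in S.C. over I.P.

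The 5 genes tested of 10 small heat shock proteins, which hold unfolded proteins without ATP, passed in neither route over DMSO. Hspb1 (HSP25) was at 7.94 and 7.58 CPM in DMSO, at 5.74, 5.66, 2.37 and 4.79 CPM in I.P., and at 16.6 and 11.4 CPM in S.C. mice. The 3 groups did not overlap. Hspb1 differed by 1.59 ± 0.53 (log2, SE; adjusted p = 0.451, edgeR) in S.C. over I.P., by -0.75 ± 0.44 in I.P. over DMSO and by 0.82 ± 0.54 in S.C. over DMSO. The call in S.C. over I.P. was lost without S.C. mouse 1. Hspb6, at a mean of 4.68 CPM, went the other way in the S.C. mice. These were at 0 to 1.68 CPM, below the DMSO mice (5.02 to 6.32 CPM) and the I.P. mice (3.44 to 8.16 CPM). Its log2 fold change was -2.77 ± 1.75 (SE) in S.C. over DMSO and -2.84 ± 1.33 in S.C. over I.P. Hspb2, Hspb11 and Cryab overlapped between S.C. and DMSO mice.

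Of 15 HSP90 co-chaperones, Fkbp5 moved most. Fkbp5 binds HSP90 in steroid receptor complexes and is a well-known target of the glucocorticoid receptor. It was at 14.9 and 19.0 CPM in DMSO, at 101, 30.1, 37.9 and 71.9 CPM in I.P., and at 4.64 and 9.54 CPM in S.C. mice. All I.P. mice were above and both S.C. mice below the DMSO mice, the reverse of Hspb1, Hspa1a and Hspa1b in the I.P. group. The log2 fold change was 1.82 ± 0.50 (SE; adjusted p = 0.98, edgeR) in I.P. over DMSO, -1.28 ± 0.60 in S.C. over DMSO and -3.08 ± 0.63 (adjusted p = 0.268) in S.C. over I.P. The call in I.P. over DMSO was lost without DMSO mouse 1. The other 14 co-chaperones did not pass in any comparison, and the list's median was -0.13 and -0.06 in I.P. and S.C. over DMSO.

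In the HSP70 family and its exchange factors (13 of 15 genes tested), 0 passed in either route over DMSO. Bag5, a nucleotide exchange factor of the same family as Bag3, fell in S.C. over I.P. by 1.12 ± 0.32 on the log2 scale (SE; adjusted p = 0.375, edgeR). The smallest P in I.P. over DMSO was that of Hspa14, a ribosome-associated HSP70, with -0.51 ± 0.27. Of 13 other J-domain genes tested, Dnajc13, which acts on endosomes, fell in S.C. over DMSO by 1.38 ± 0.36 (adjusted p = 0.747, edgeR). It was at 62.0 and 47.9 CPM in DMSO, at 36.0, 46.7, 51.6 and 43.9 CPM in I.P., and at 20.3 and 22.7 CPM in S.C. mice. Its call was lost without either DMSO mouse. Dnajb12, an ER membrane J-protein, had 0.53 ± 0.26 in I.P. over DMSO.

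In the remaining chaperone lists 0 genes passed in any comparison. Of the 14 mitochondrial chaperones and proteases, the smallest P was that of Hscb, an iron-sulfur cluster co-chaperone, in I.P. (0.46 ± 0.29) and that of Dnaja3, the mitochondrial HSP40, in S.C. over DMSO (-0.51 ± 0.31). The 14 genes of TRiC and prefoldin, which fold actin and tubulin, lay below 0 for 12 genes in each route over DMSO, with medians of -0.26 and -0.15 and values of -0.39 ± 0.28 for Cct8 in I.P. and -0.33 ± 0.28 for Tcp1 in S.C. Of 15 ER chaperones, 13 lay below 0 in I.P. over DMSO (median -0.32) and 8 in S.C. over DMSO (median -0.14). Pdia4, a protein disulfide isomerase, had -0.72 ± 0.37 in I.P. and Canx, the lectin chaperone calnexin, -0.54 ± 0.28 in S.C. over DMSO. For all 116 genes together the median was -0.13, -0.03 and 0.15 in the 3 comparisons.

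**Figure D4:**
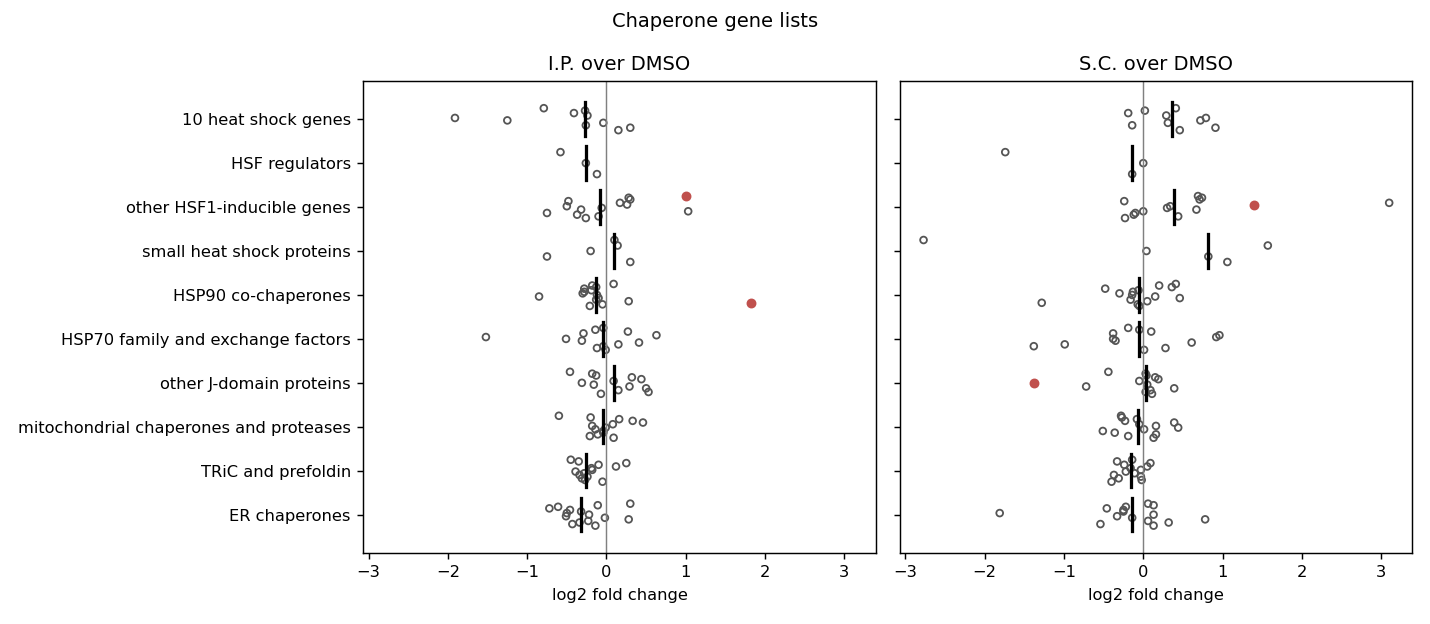
Log2 fold changes (x axis) of the 10 heat shock genes and of the other chaperone genes by list, with 1 point per gene tested, a line at each list's median, and filled points for other chaperone genes with an unadjusted edgeR P under 0.05. The 10 heat shock genes have medians of -0.27 (I.P.) and 0.36 (S.C.), and 2 other genes pass in each panel.

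The genes whose levels followed the 10 genes most closely were sought among 9318 others with a mean of at least 5 CPM, by Pearson's r over 8 mice with the mean of the 10 genes' standardized log2 CPM. This mean was 0.25 and 0.17 in DMSO, -0.42, -0.43, -0.58 and -0.57 in I.P., and 0.83 and 0.75 in S.C. mice. Ubl4, which delivers tail-anchored membrane proteins to the ER, was first with r = 0.967 (rho 0.929). Fam108b (0.932, rho 0.952), Dnaja1 (0.929, rho 0.833), the glucose transporter Slc2a3 (0.928, rho 0.905) and the actin-bundling protein Pls3 (0.925, rho 0.810) followed. Without the 2 S.C. mice, which lay farthest from the median, r was 0.888, 0.763, 0.736, 0.805 and 0.890 in that order. The highest of many correlations is high by selection, and these are given without a test.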

How the data were processed

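RNA-seq counts of TAMs of 8 mice (2 DMSO, 4 I.P., 2 S.C.) were used, grouped by the labels DMSO, IP and IS. The authors deposited raw counts per gene symbol as whole numbers without normalization. Their methods name mm10, bowtie2 and RSEM, whereas the submitters' processing notes name TopHat2 and edgeR, and which made the table is not given in the sources used here, nor are read length and strand. The 10 genes, the lists and the alternatives were chosen with earlier results of these data known.

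Fits used edgeR 4.0.16 under R 4.3.3 with limma 3.58.1, and DESeq2 1.42.0 as an alternative. Genes were filtered by filterByExpr (minimum count 10, minimum total 15) with TMM scaling. Separate fits were made for the 3 pairs of groups, tested by the two-sided quasi-likelihood test, with Benjamini-Hochberg adjustment over all genes tested. SEs were derived as the absolute log2 fold change over the root of the F statistic. Log2 CPM used a prior count of 2. Scripts were tested on simulated data. The paper states that treated and control mice shared a breeding colony and housing. Which mice shared litters, cages or batches is not given, and p-values cover the spread between these mice. At this depth 3 counts, the floor, are 0.169 to 0.219 CPM, for counting error only. Symbols were matched to GENCODE vM21 for exon lengths and shared 50-base words, and 93.0% were found. Older symbols in the table were matched through aliases, such as Emr1 for Adgre1.

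Named were all 10 genes, all HSF regulators, the gene of smallest P of each list and route over DMSO among those with a mean of at least 5 CPM, any list gene with P under 0.05 and at least 2-fold, and the 5 genes most like the 10. Dnaja1, Serpinh1, Hspb6 and the small heat shock proteins beside it, the member pairs and the immediate early examples were named after their values were seen. Alternatives were other filters, scalings, tests, 1 fit of all groups, a replicate block, leaving out each mouse, and Hspa1a and Hspa1b summed, the last chosen after seeing the data.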

Additional observations from a re-analysis of the deposited data

Results flagged for a closer look

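In 27 genes examined, Bag5 in I.P. mouse 1, at 34.7 CPM, stood apart from the other I.P. mice (46.3 to 46.6 CPM), with a gap of 0.972 of the group's range. Chance alone would mark about 1 in 20 groups in this way. None of the 10 heat shock genes stood apart in the I.P. group by this measure, and groups of 2 were not examined.

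For Fkbp5 and Hspb1 the DMSO mice lay between the groups, with every I.P. mouse on 1 side and every S.C. mouse on the other. The difference itself, S.C. over I.P., was -3.08 for Fkbp5 (adjusted p = 0.268, edgeR) and 1.59 for Hspb1 (adjusted p = 0.451, edgeR) on the log2 scale, so neither passed the adjustment over all genes tested.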

How the results depend on the processing

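With 2 mice in 2 of the groups, single mice set several values. The median log2 fold change of the 10 genes in S.C. over DMSO ranged from 0.05 (without S.C. mouse 2) to 0.53 with 1 mouse left out, against 0.36. All other alternatives left the 3 medians on the same side of 0. The count of other chaperone genes at unadjusted P under 0.05 moved more. In I.P. over DMSO it was 2, and 0 to 4 with 1 mouse left out (0 without DMSO mouse 1, 4 without I.P. mouse 2). In S.C. over DMSO it was 2, but 4 with library size only, 4 by DESeq2, 6 with all 3 groups in 1 fit, and 0 to 21 with 1 mouse left out (0 without DMSO mouse 2, 18 without S.C. mouse 1, 21 without S.C. mouse 2). Without S.C. mouse 1 or 2 these are 17% and 19.4% of the chaperone genes tested, while 30.4% and 34% of all genes tested passed in the same fits. In S.C. over I.P. it was 7, but 11 with all 3 groups in 1 fit, and 6 to 20 with 1 mouse left out (20 without S.C. mouse 2, or 18.3%, beside 18.2% of all genes). Leaving out a mouse of a group of 2 assumes that the lone mouse varies like the other group. Dnajb1 in S.C. over DMSO was 0.75 with library size only, against 0.91. The causes were not tested.

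With same-numbered mice as a replicate block the counts were 1, 4 and 3, and the medians of the 10 genes -0.29, 0.34 and 0.43. The numbers were not taken as pairing mice, since deviations of same-numbered mice correlated at -0.129 to 0.071.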
